A study of Mus musculus with 10 samples.

Results

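The 2 libraries of iB-Tregs (C), regulatory T cells (Tregs) kept on primary astrocytes with the full set of added factors, were compared with the 2 libraries of Ischemia-Tregs, Tregs taken from the mouse brain after ischemic stroke. These 4 libraries are 4 of the 10 in the series, and the comparison covered 25404 of the 55401 gene identifiers in the count table, those whose brain counts could be placed beside their identifier. The 2 iB-Treg (C) libraries came from hCD2+ Tregs of Foxp3-hCD2 knock-in mice on the C57BL/6J background, in which human CD2 is a reporter driven by the Foxp3 locus. These Tregs, isolated from spleen and lymph nodes, were cultured for 6 days on neonatal glial cells enriched for astrocytes with anti-CD3 and anti-CD28 antibodies at 2 µg/ml each, IL-2, IL-33, CCL1 and CCL20 at 20 ng/ml each and serotonin at 10 µM. The 2 Ischemia-Treg libraries came from brain Tregs of the same strain on day 28 after a transient occlusion of the middle cerebral artery in male mice aged 8 to 12 weeks. Cells from both sources were selected as hCD2+ before RNA was taken. A culture of this kind lacks the blood vessels, neurons and infiltrating leukocytes of the injured brain. Levels in untreated spleen Tregs (SP-Tregs), iB-Tregs (A) and iB-Tregs (B), with 2 libraries each, are given only for reference. iB-Tregs (A) were also cultured on astrocytes, with anti-CD3, anti-CD28 and IL-2 but no other added factor. iB-Tregs (B), on astrocytes too, received IL-33 and serotonin as well. The labels name no animal or culture for any library, so p-values measure only how far apart these libraries lie, which may be technical.

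Tregs are CD4+ T cells that restrain immune responses and depend on the transcription factor Foxp3. Tregs that settle in tissues carry a further program, with the IL-33 receptor ST2, Gata3, Areg and particular chemokine receptors, and those in the injured brain are known for acting on astrocytes through amphiregulin. In culture, antigen receptor stimulation and IL-2 drive Tregs into division, while IL-33 and serotonin act on cells that carry their receptors.

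The libraries differed in kind before any gene was considered. The iB-Treg (C) libraries held 15649512 and 16151684 counts and the Ischemia-Treg libraries 5186728 and 6062312, so the brain values carry the larger counting error. Mitochondrial ribosomal RNA took 16.9% ± 0.0811 of the counts in kept genes in Ischemia-Tregs (SD, n = 2) and 0.171% ± 0.00306 in iB-Tregs (C) (n = 2), and small structural RNA took 13.8% ± 1.22 and 0.0213% ± 8.24e-05. SP-Tregs resembled the brain libraries in this and the other iB-Treg groups resembled iB-Tregs (C), so the kind of library and the difference between cells from an animal and cells from a dish cannot be told apart. CPM are counts scaled to one common library total after TMM scaling, which evens out composition. Replicates lay close: the median absolute difference between the 2 libraries of a group, over genes at 10 CPM or more, was 0.0692 on the log2 scale in iB-Tregs (C) and 0.189 in Ischemia-Tregs.

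Most measured genes differed between iB-Tregs (C) and Ischemia-Tregs. Of the 12093 genes with enough counts to test, 8133 passed an adjusted p of 0.05 in edgeR's quasi-likelihood test (67.3%), 4416 of them higher in iB-Tregs (C) (36.5%) and 3717 lower (30.7%). Over 2-fold, 2780 were higher (23%) and 1953 lower (16.1%). The median log2 fold change over the tested genes, iB-Tregs (C) minus Ischemia-Tregs, was 0.12, the quartiles were -0.63 and 0.97, and 39.2% of the tested genes lay within 1.5-fold of each other. Every count of list members below is to be read against these shares, since a list whose members pass as often as other genes does not stand out. Direction depended on the scale: T cell core genes (antigen receptor chains, CD4 T cell signalling) had a median log2 fold change of -0.69, and when the libraries were instead scaled to set that median to 0, a choice made after seeing the data, 7604 genes were higher and 1767 lower, which is 81.1% of the calls on the higher side against 54.3%. In bulk RNA, fewer cells of a type and less RNA per cell cannot be told apart. Values on this second scale are called T cell-scaled below.

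The T cell core list was itself mostly lower: 15 of 22 tested members were lower in iB-Tregs (C), 4 higher and 3 did not pass. Cd3e, a signalling chain of the antigen receptor complex, stood at 140 and 132 CPM in the 2 iB-Treg (C) libraries and at 597 and 478 CPM in Ischemia-Treg libraries 3 and 4. Themis, which tunes antigen receptor signalling, was lower still, at 8.44 and 7.9 CPM against 78.2 and 90.5 CPM (log2 fold change -3.37, SE 0.14, adjusted p = 1.23e-07). Cd28, the costimulatory receptor, went the other way, at 123 and 113 CPM against 69.7 and 84.3 CPM (log2 fold change 0.60, SE 0.11, adjusted p = 0.000991). The list therefore did not move as 1 block, so its median is only 1 possible reference.

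Treg identity genes split. Of 22 tested, 11 were higher in iB-Tregs (C) and 10 lower, with a median log2 fold change of 0.18 (0.30 without Ischemia-Treg library 3). T cell-scaled, 14 were higher and 7 lower, with a median of 0.88. Foxp3, the factor that defines the lineage, stood at 201 and 204 CPM in iB-Tregs (C) and at 676 and 714 CPM in Ischemia-Tregs. The log2 fold change was -1.78 (SE 0.07, adjusted p = 5.51e-08), the groups did not overlap, and on the T cell scale it was -1.09 (adjusted p = 8.35e-07). SP-Tregs, at 621 and 599 CPM, lay closer to the brain level, and iB-Tregs (A) and (B), at 200 to 247 CPM, were near iB-Tregs (C).
Ikzf2, encoding the transcription factor Helios, was at 208 and 181 CPM against 1089 and 1061 CPM (log2 fold change -2.46), and Nrp1, a surface receptor of thymus-derived Tregs, at 98.3 and 89 CPM against 570 and 576 CPM (log2 fold change -2.61). Itgae, which encodes the CD103 integrin chain, was lower by the widest margin of the list, with a log2 fold change of -3.22 (SE 0.14). Among the higher members, Ctla4, the inhibitory receptor that strips CD80 and CD86 from other cells, was at 514 and 529 CPM against 241 and 218 CPM (log2 fold change 1.19, SE 0.07). Il2ra, the high-affinity IL-2 receptor chain, was at 925 and 892 CPM against 505 and 534 CPM (log2 fold change 0.81, SE 0.06). Tnfrsf9 (4-1BB) reached 1.73 and Socs2, a feedback inhibitor of cytokine signalling, 2.94 on the log2 scale.

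Genes of tissue Tregs were lower in iB-Tregs (C). Of 23 tested, 18 were lower, 1 was higher and 4 did not pass, with a median log2 fold change of -1.34. On the T cell scale the counts were 14 lower and 5 higher, with a median of -0.65. The genes reached the brain level to very different degrees.
Il1rl1, encoding ST2, stood at 182 and 175 CPM in iB-Tregs (C) and at 249 and 361 CPM in the brain libraries (log2 fold change -0.78, SE 0.14, adjusted p = 0.00106), and the T cell-scaled difference was -0.09 (SE 0.14, adjusted p = 0.583). The gene was at 6.61 and 7.66 CPM in iB-Tregs (A), at 173 and 178 CPM in iB-Tregs (B) and at 32.5 and 47.4 CPM in SP-Tregs, so the levels with the full set of factors, like those with IL-33 and serotonin alone, were nearer to the brain than those without either.
Klrg1, an inhibitory lectin receptor of effector Tregs, followed the same order: 23.7 and 25.2 CPM in iB-Tregs (C) against 31.8 and 51.3 CPM (log2 fold change -0.79, adjusted p = 0.00709), with 0.621 and 0.877 CPM in iB-Tregs (A). Pparg, the nuclear receptor of fat tissue Tregs, was at 8.21 and 9.59 CPM against 11.5 and 15.9 CPM (log2 fold change -0.64, SE 0.24, adjusted p = 0.0437). That call was lost without Ischemia-Treg library 4 (-0.36) or without either iB-Treg (C) library (-0.51 and -0.74). It was also lost in DESeq2 (adjusted p = 0.185), and in edgeR without the low-count filter (adjusted p = 0.0857) or without genes that had almost no counts in 1 group (adjusted p = 0.0535). T cell-scaled, neither Klrg1 (-0.10, SE 0.20) nor Pparg (0.06, SE 0.24) passed. Batf and Irf4, the transcription factors of the effector Treg program, did not pass, at -0.21 (SE 0.11, adjusted p = 0.135) and -0.12 (SE 0.11, adjusted p = 0.366), but both were higher on the T cell scale, by 0.48 and 0.57. Without Ischemia-Treg library 3 Batf and Irf4 were at -0.26 and -0.27, and without library 4 Irf4 was at 0.08.

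**Figure D1:**
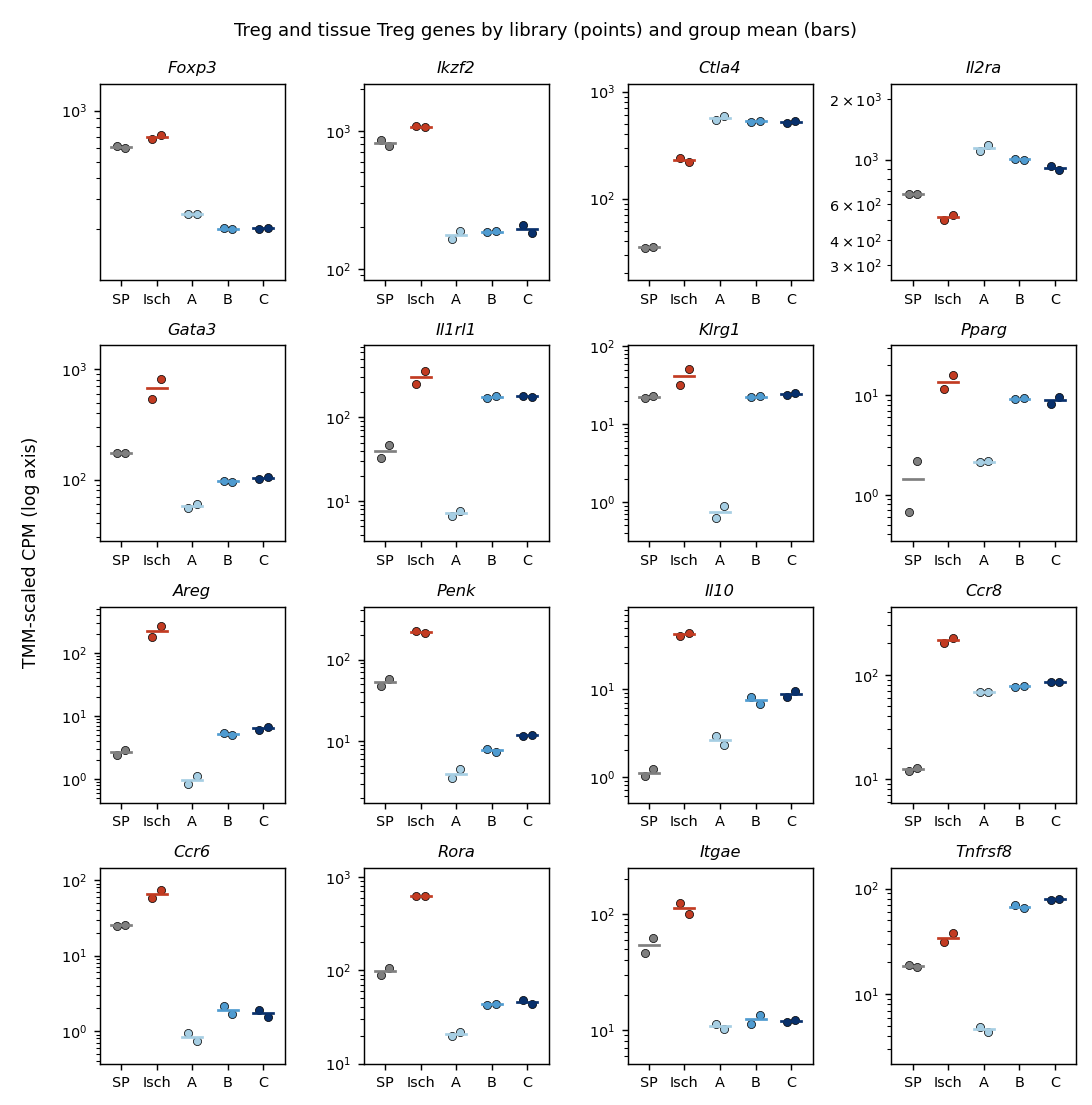
TMM-scaled CPM (log axis) of 16 Treg and tissue Treg genes in 5 groups of 2 libraries, with 1 point a library and a bar at each group mean (SP, SP-Tregs. Isch, Ischemia-Tregs. A, B and C, the iB-Treg groups). Il1rl1, Klrg1 and Pparg in iB-Tregs (C) sit close under the brain libraries, whereas Areg, Penk, Ccr6 and Rora sit far below them and Ctla4, Il2ra and Tnfrsf8 above.

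Other genes of the same program stayed far from the brain level. Areg, the EGF receptor ligand amphiregulin, was at 5.94 and 6.69 CPM in iB-Tregs (C) and at 180 and 270 CPM in Ischemia-Tregs (log2 fold change -5.16, SE 0.20, adjusted p = 7.19e-08). SP-Tregs held 2.38 and 2.92 CPM of it and iB-Tregs (A) 0.843 and 1.11 CPM. Penk, encoding the enkephalin precursor, was at 11.6 and 12 CPM against 223 and 211 CPM (log2 fold change -4.20, SE 0.10), which is also under the SP-Treg libraries at 47.6 and 57.6 CPM.
Rora, the nuclear receptor ROR alpha, was at 48.3 and 43.9 CPM against 627 and 620 CPM (log2 fold change -3.76, SE 0.08). Gata3, the factor of type 2 responses, was at 100.3 and 105.3 CPM against 536 and 826 CPM (log2 fold change -2.73, SE 0.17), and Il10, the anti-inflammatory cytokine, at 8.02 and 9.45 CPM against 40 and 43.3 CPM (log2 fold change -2.26, SE 0.18). All 5 stayed lower when T cell-scaled, from -4.47 for Areg to -1.57 for Il10. The member that was higher was Tnfrsf8 (CD30), at 78.7 CPM in both iB-Treg (C) libraries against 31 and 37.5 CPM (log2 fold change 1.19, SE 0.12), while iB-Tregs (A) held 4.93 and 4.38 CPM.

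The receptors of the added factors were measured for 14 of 20 listed genes, and 9 were lower and 5 higher in iB-Tregs (C) (median -0.51). T cell-scaled, 4 were lower and 7 higher (median 0.18). Htr1b and Htr2b, with no brain count, could only be called higher. Without genes that had almost no counts in 1 group 12 were tested, 9 of them lower and 3 higher (median -0.65). Ccr8, the receptor of CCL1, was at 86.1 and 84.7 CPM against 203 and 225 CPM (log2 fold change -1.33, SE 0.08), and its level in iB-Tregs (A), without CCL1, was 68.3 and 68 CPM. Ccr6, the receptor of CCL20, was nearly absent from iB-Tregs (C), at 1.89 and 1.55 CPM, against 58.2 and 73 CPM in the brain and 25 and 25.8 CPM in SP-Tregs (log2 fold change -5.25, SE 0.21, adjusted p = 9.07e-08).
Of the serotonin receptors, Htr7 was at 0 and 0.0485 CPM in iB-Tregs (C) and at 3.47 and 0 CPM in the brain libraries, too few counts to test. Htr1b and Htr2b had counts in iB-Tregs (C), up to 1.36 and 1.99 CPM, and none in the brain libraries, which gives at least 3.08-fold and 5.41-fold higher levels against a floor of 3 counts over the group. The call of Htr1b was lost without iB-Treg (C) library 1 (adjusted p = 0.103) and that of Htr2b without library 2 (adjusted p = 0.054). Il2rb, the shared IL-2 and IL-15 receptor chain, differed little, with a log2 fold change of -0.27 (adjusted p = 0.014) that turned to 0.42 on the T cell scale and did not pass without Ischemia-Treg library 3 (-0.14, adjusted p = 0.0547).

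The IL-2 and IL-33 gene lists leaned different ways on the main scale, but T cell-scaled both had more genes higher than lower. In the IL-2 and STAT5 list 9 of 14 genes were higher and 4 lower (median 0.75), and T cell-scaled 12 were higher and 1 lower (median 1.45). Bcl2, the survival factor, was at 595 and 568 CPM against 94.3 and 117 CPM (log2 fold change 2.45, SE 0.10), and Osm (oncostatin M) had a log2 fold change of 2.95, whereas the transcription factors Stat5a and Stat5b were at -0.73 and -0.94, of which Stat5a no longer passed when T cell-scaled (-0.04, adjusted p = 0.743). In the IL-33 and NF-kB list 13 of 22 were lower and 4 higher (median -0.51), and T cell-scaled 5 were lower and 10 higher (median 0.18).
Tnfaip3, which encodes A20, a deubiquitinase that ends NF-kB signalling, was at 6649 and 7119 CPM in the brain libraries, against 449 and 448 CPM in iB-Tregs (C) and 124 and 130 CPM in SP-Tregs (log2 fold change -3.94, SE 0.06, adjusted p = 1.21e-09). Rel, a subunit of NF-kB, had a log2 fold change of -1.70, and Nfkbiz and Nfkbie, of the inhibitor family, -1.84 and -1.50. Traf6, the adaptor below the IL-33 receptor, was higher, at 207 and 196 CPM against 87.8 and 57.3 CPM (log2 fold change 1.49). The type 2 cytokine list was divided, with 2 of 5 tested members up in iB-Tregs (C) and 2 down (median 1.08, T cell-scaled 3 and 1). Its summed level was lower there, at 47.5 and 52.3 CPM against 186 and 291 CPM in the brain libraries. Areg, a member described above, gave 180 and 270 CPM of the brain sums. Il5 rose, at 27.3 and 28.3 CPM in iB-Tregs (C), against 0.267 and 5.36 CPM in the brain libraries, which differ widely from each other, and 0.266 and 0.0461 CPM in iB-Tregs (A) (log2 fold change 3.16, SE 0.46, adjusted p = 0.000296, but 0.0618 in DESeq2).

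Immediate early genes, which antigen receptor signals, cyclic AMP and also tissue handling switch on within minutes, were lower in iB-Tregs (C). Of 33 AP-1 and immediate early genes, 24 were lower, 7 higher and 2 did not pass (median -1.09, T cell-scaled -0.40 with 20 lower and 10 higher). Of 18 cyclic AMP responsive genes, 16 were lower, none was higher and 2 did not pass (median -2.13, T cell-scaled -1.44 with 13 lower and 2 higher). Both lists share some members, such as Dusp1 and Nr4a3. Brain tissue was digested with collagenase before selection, a step not described for the cultured cells, and the effect of digestion and that of the group cannot be told apart.
Rgs2, which limits G protein signalling, was at 52.2 and 52.3 CPM in iB-Tregs (C), 942 and 974 CPM in Ischemia-Tregs and 14.9 and 10.4 CPM in SP-Tregs (log2 fold change -4.20, SE 0.07, adjusted p = 1.21e-09). Dusp1, a phosphatase of MAP kinases, was at 127 and 126 CPM against 1272 and 1449 CPM (log2 fold change -3.43), Btg2, an inhibitor of proliferation, at 38.5 and 36.8 CPM against 473 and 500 CPM (log2 fold change -3.69), and Nr4a3, an orphan nuclear receptor induced by antigen, at 71.1 and 65.9 CPM against 816 and 950.2 CPM (log2 fold change -3.69). In each of these 4 genes both brain libraries lay above all 8 other libraries, SP-Tregs included. Sik1 and Fosb followed with -3.32 each.

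**Figure D2:**
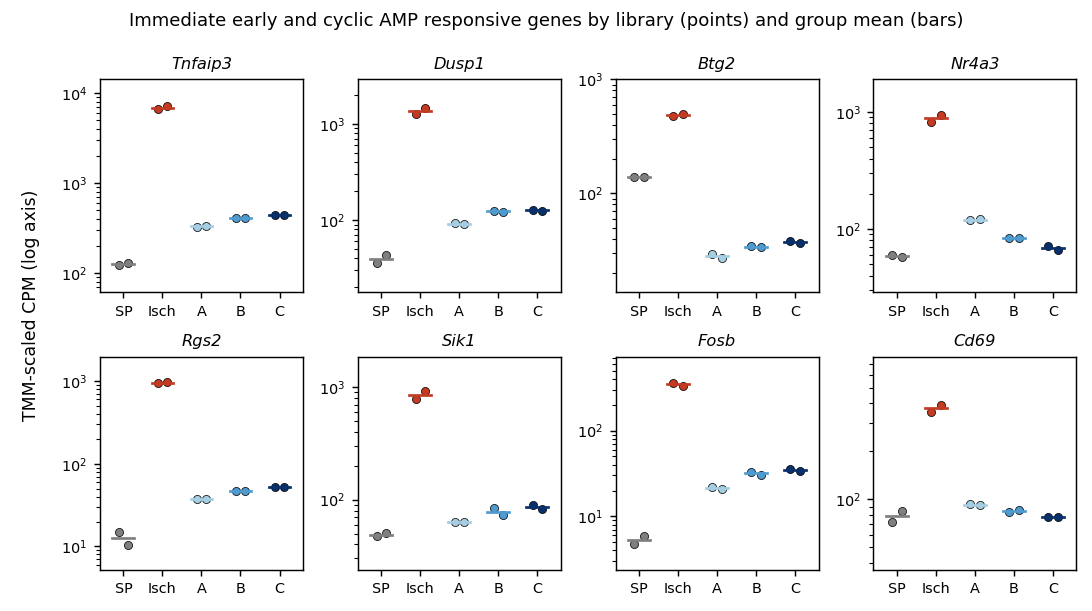
TMM-scaled CPM (log axis) of 8 immediate early, cyclic AMP responsive and NF-kB feedback genes in 5 groups of 2 libraries, with 1 point a library and a bar at each group mean. In all 8 panels the 2 Ischemia-Treg libraries sit above every other library, SP-Tregs (SP) included, as with Rgs2 at 942 and 974 CPM against 52.2 and 52.3 CPM in iB-Tregs (C).

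Promoters of these genes were read for the cyclic AMP response element, because one of the lists that were mostly lower is named after that signal. The letters TGACGTCA, which read the same on both strands, were searched in RefSeq windows (GRCm38.p6) from 250 bases before to 50 bases after each start. They stand in 1.79% of 32851 windows, or in 549 of 27025 genes (2.03%). Among list members with a window they stood in 1 of 13 cyclic AMP responsive genes (Dusp1), in 3 of 26 immediate early genes (Dusp1, Btg2 and Ppp1r15a) and in 1 of 17 tissue Treg genes (Areg). All 4 genes were lower in iB-Tregs (C), as were most tested members of their lists. The stretches below show the 4 sites with 40 bases on each side, written 5′ to 3′ on the strand of the gene, with the searched letters in capitals. They lie at chr5:91139498-91139585 (plus strand) for Areg, chr1:134079274-134079361 (minus strand) for Btg2, chr17:26508568-26508655 (minus strand) for Dusp1 and chr7:45526233-45526320 (minus strand) for Ppp1r15a.
Areg: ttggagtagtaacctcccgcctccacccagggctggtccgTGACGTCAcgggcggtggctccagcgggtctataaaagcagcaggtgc
Btg2: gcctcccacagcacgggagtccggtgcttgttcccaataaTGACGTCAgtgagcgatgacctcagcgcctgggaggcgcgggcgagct
Dusp1: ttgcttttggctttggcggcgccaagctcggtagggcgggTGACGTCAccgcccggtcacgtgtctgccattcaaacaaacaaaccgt
Ppp1r15a: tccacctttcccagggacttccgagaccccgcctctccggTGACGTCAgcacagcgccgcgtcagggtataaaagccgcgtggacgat
The site begins 61 bases before the start in Areg, 166 in Btg2, 143 in Dusp1 and 12 in Ppp1r15a. Ppp1r15a, a phosphatase subunit of the stress response named here for its site, had a log2 fold change of -2.10. The shorter letters TGACGT, searched on both strands and contained in every longer match, stood in 8.37% of all genes, in 7 of 13 cyclic AMP responsive genes, in 9 of 26 immediate early genes and in 3 of 17 tissue Treg genes. Of the 7 cyclic AMP responsive genes with the shorter letters, 6 were lower in iB-Tregs (C), against 16 of all 18 tested. Of the 9 immediate early genes 7 were lower, against 24 of 33, and of the 3 tissue Treg genes 2, against 18 of 23. Lower calls were thus about as common in the lists as a whole. Such matches describe the sequence only, and binding was not measured.

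Receptors that place T cells in tissue were lower in iB-Tregs (C). Of 16 chemokine receptors 14 were lower and 2 higher (median -2.22, T cell-scaled -1.53). Cxcr4, the receptor of CXCL12, was at 48.5 and 46.5 CPM against 480 and 507 CPM (log2 fold change -3.38, SE 0.08), Ccr2 at 12.1 and 10.3 CPM against 132 and 148 CPM (log2 fold change -3.65), and Cxcr3 at 13.8 and 13.6 CPM against 146 and 91.8 CPM (log2 fold change -3.10). The 2 that were higher, Ccr1 (log2 fold change 4.30) and Cx3cr1 (1.29), are also receptors of macrophages and microglia, whose markers were higher in the same libraries.
Of 19 residency and adhesion genes 17 were lower and 2 higher (median -1.07, T cell-scaled -0.38 with 11 lower and 5 higher). Cd69, which holds cells in tissue by removing S1PR1 from the surface, was at 77.8 and 77.7 CPM against 354 and 389 CPM (log2 fold change -2.26), and the integrin genes Itga1 and Itgb1 were at -5.55 and -2.25. S1pr1, the receptor for exit towards blood and lymph, was lower as well, at 64.4 and 66.3 CPM against 262 and 275 CPM (log2 fold change -2.04), as were 12 of 18 genes of naive and lymphoid Tregs, with 5 higher (median -0.97, T cell-scaled -0.27 with 9 lower and 7 higher), among them the factors Lef1 (-2.81), Tcf7 (-1.72) and Klf2 (-3.55). Lef1 was also lower in the brain than in SP-Tregs, at 178 and 188 CPM against 354 and 348 CPM, with 25.8 and 26.3 CPM in iB-Tregs (C).

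Inhibitory and activation receptors were mixed, with 12 of 25 lower and 7 higher (median -0.52, and -0.26 without Ischemia-Treg library 4). T cell-scaled, 6 were lower and 10 higher (median 0.17). Lag3, an inhibitory receptor that binds MHC class II, was at 254 and 255 CPM against 43.3 and 23.7 CPM (log2 fold change 2.96, SE 0.18). Gzmb, the cytotoxic protease granzyme B, was at 144 and 153 CPM against 25.6 and 28 CPM (log2 fold change 2.46). Tox, a factor of exhausted T cells, was lower (-2.05), as were Cd96 (-1.78), Pdcd1 (-1.24) and Tigit (-0.84), of which Tigit no longer passed when T cell-scaled (-0.14, adjusted p = 0.231).

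**Figure D3:**
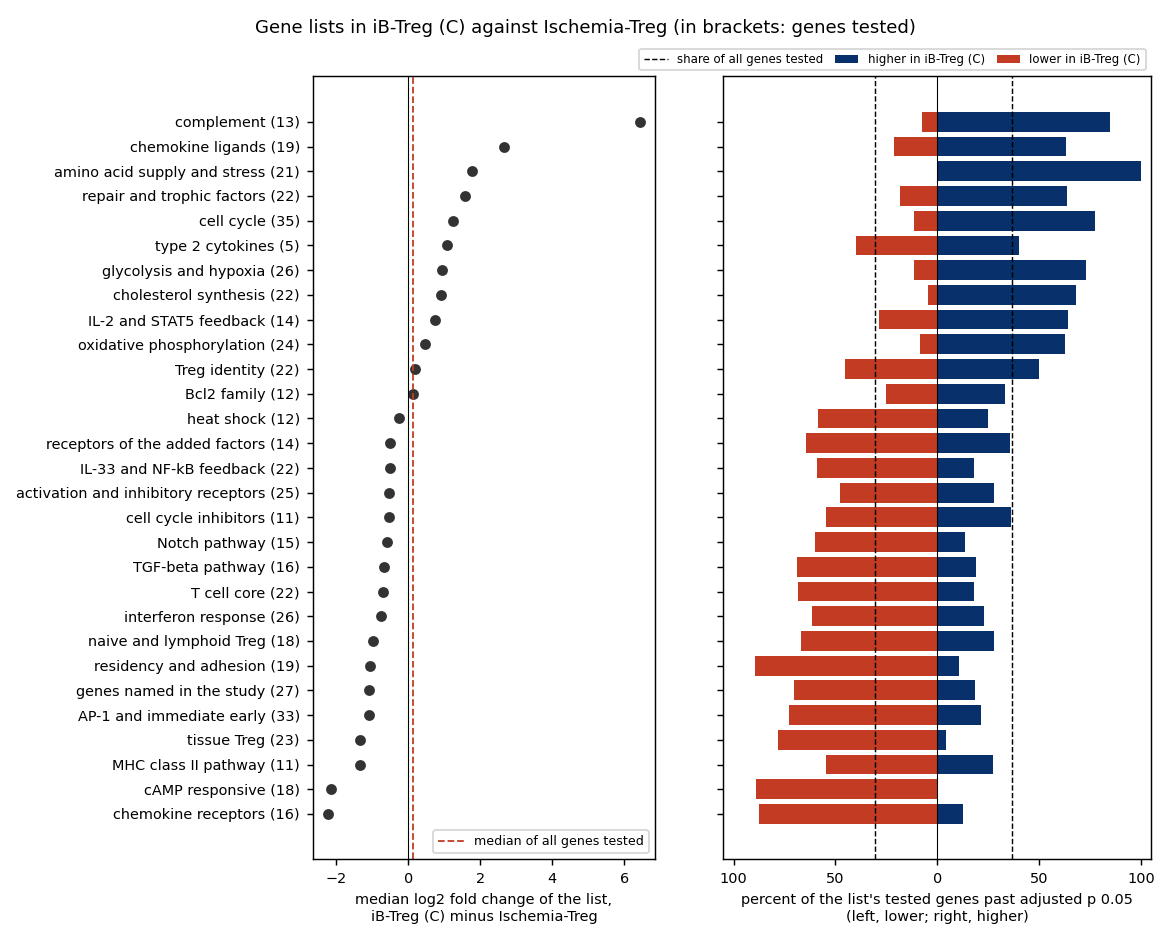
Median log2 fold change (left) and percent of tested genes past adjusted p 0.05 in each direction (right) for 29 gene lists, iB-Tregs (C) minus Ischemia-Tregs, with the number of genes tested in brackets. Dashed lines mark the values over all 12093 tested genes (median 0.12, 36.5% higher, 30.7% lower). Chemokine receptors and cyclic AMP responsive genes are at the lower end, and complement, chemokine ligands and amino acid supply at the upper end.

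Genes of growth and metabolism were higher in iB-Tregs (C). All 21 genes of amino acid supply and its stress response were higher, 17 of them over 2-fold, with a median log2 fold change of 1.77. Trib3, a pseudokinase induced by amino acid shortage, was at 129 and 124 CPM against 8.01 and 4.95 CPM (log2 fold change 4.32, SE 0.17), and Slc7a11, the cystine importer, at 68.1 and 63.8 CPM against 0 and 0.619 CPM (log2 fold change 7.52, SE 0.35).
Of 35 cell cycle genes 27 were higher and 4 lower (median 1.23). Cdc20, which starts the exit from mitosis, was at 66.8 and 65.2 CPM against 10.7 and 11.1 CPM (log2 fold change 2.59, SE 0.15), and Foxm1, a factor of the late cycle, at 77.3 and 70.7 CPM against 14.9 and 12.2 CPM (log2 fold change 2.46). The 4 lower genes were Mcm4 (-0.61), Ccnd2 (-0.51), Mcm6 (-0.49) and Ccnd3 (-0.25), which act at the start of the cycle, and on the T cell scale they stood at 0.08, 0.18, 0.20 and 0.44. The call of Ccnd3 was lost when either iB-Treg (C) library was left out (adjusted p = 0.293 and 0.203).
Cholesterol synthesis had 15 of 22 genes higher and 1 lower (median 0.90), with Lss, the lanosterol synthase, at 32.4 and 30.2 CPM against 4.81 and 4.95 CPM (log2 fold change 2.68, SE 0.21). Glycolysis and hypoxia genes were higher in 19 of 26 and lower in 3 (median 0.93), with Bnip3, a mitochondrial target of hypoxia, at 58.8 and 56.2 CPM against 6.14 and 3.71 CPM (log2 fold change 3.58). Oxidative phosphorylation had 15 of 24 higher and 2 lower (median 0.46), with Atp5a1 of the ATP synthase at 463 and 480 CPM against 91.6 and 90.5 CPM (log2 fold change 2.37).

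Interferon and antigen presentation genes were lower in part. Of 26 interferon response genes 16 were lower and 6 higher (median -0.76), but on the T cell scale 7 were lower and 9 higher (median -0.07), and without Ischemia-Treg library 4 the median was -0.35. Ifit1, an interferon-induced protein, was at 11 and 9.79 CPM in iB-Tregs (C) against 53.7 and 66.8 CPM (log2 fold change -2.54). Bst2 (tetherin) and Oas2 were higher, by 1.68 and 4.06 on the log2 scale.
Of 11 genes of the MHC class II pathway 6 were lower and 3 higher (T cell-scaled 6 lower and 4 higher). The summed level of the 11 was the higher in iB-Tregs (C), at 1299 and 1403 CPM against 926 and 747 CPM. H2-Aa, an MHC class II chain, was at 3.4 and 3.2 CPM against 71.3 and 42.9 CPM (log2 fold change -4.10), and its activator Ciita at 0.849 and 1.21 CPM against 10.7 and 14.8 CPM (log2 fold change -3.63). In the same brain libraries all 8 B cell markers and 6 of 8 dendritic cell markers were higher than in iB-Tregs (C), and their part in these levels was not tested.

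Repair factors and complement were higher in iB-Tregs (C), in the same libraries in which microglia and macrophage markers were high. Of 22 repair and trophic factor genes 14 were higher and 4 lower (median 1.58), with medians of 0.70 without Ischemia-Treg library 3 and of 0.80 and 0.90 without iB-Treg (C) library 1 or 2. Spp1, the secreted phosphoprotein osteopontin, was at 1047 and 1106 CPM against 13.4 and 17.7 CPM (log2 fold change 6.09, SE 0.11, adjusted p = 1.67e-09), with 120 and 125 CPM in iB-Tregs (A) and no count in SP-Tregs. Of 13 complement genes 11 were higher and 1 lower (median 6.42), but members with no brain count could only be called higher. Without genes that had almost no counts in 1 group 7 of 9 complement genes were higher and 1 lower (median 5.87). Without the runs of low neighbouring genes described below 8 of 10 were higher and 1 lower (median 6.7). C3, the central component, was at 3435 and 3324 CPM against 2.4 and 0.206 CPM (log2 fold change 11.5, SE 0.22), and properdin, Cfp, at 450.3 and 464 CPM against 4 and 1.24 CPM. Of 19 chemokine ligand genes 12 were higher and 4 lower (median 2.67, but 5.24 without Ischemia-Treg library 3 and 5.58 without iB-Treg (C) library 2), with Ccl9 at 411 and 430 CPM against 0.801 and 1.24 CPM (log2 fold change 8.64). Without genes that had almost no counts in 1 group the medians were 1.70 for the chemokine ligands and 0.60 for the repair genes. Without the runs of low neighbouring genes described below they were 1.74 and 1.58. Among genes at 1 CPM or more in both SP-Treg libraries they were -1.95 and -0.03, but only 3 of the 22 kept chemokine ligands reached 1 CPM in each SP-Treg library. Ccl1, itself one of the added factors, was at 0.0472 and 0 CPM in iB-Tregs (C) and at 25.6 and 10.5 CPM in Ischemia-Tregs (log2 fold change -9.04, SE 0.80), and Ccl5 was lower too (-2.00).

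Markers of other cells moved with the groups in both directions. Examples among them were picked after their values were seen where they were not among the largest changes. Of 18 tested microglia and macrophage markers 17 were higher in iB-Tregs (C) and none lower (median 5.60), and the summed level of the 19 kept genes was 6897 and 7301 CPM in iB-Tregs (C) against 112 and 143 CPM in Ischemia-Tregs, 4438 and 4256 CPM in iB-Tregs (A) and 51.5 and 61.9 CPM in SP-Tregs. CPM do not correct for gene length, so such sums compare libraries and not lists. The summed T cell core list was 5674 and 5868 CPM in iB-Tregs (C) and 9597 and 9255 CPM in Ischemia-Tregs. Lyz2, the lysozyme of macrophages and other myeloid cells, alone gave 3600 and 3810 CPM against 6.41 and 21 CPM. Tmem119 and P2ry12, which mark microglia among brain macrophages, were low, at 7.26 and 6.4 CPM and at 4.2 and 3.73 CPM in iB-Tregs (C), and Sall1 was too low to test.
Of 20 listed astrocyte markers 11 had enough counts to test. Of these 10 were higher in iB-Tregs (C), 9 of them over 2-fold, and none lower (median 3.41). Members with no brain count could reach the test only through iB-Tregs (C), so they could only be called higher. Among the 7 with counts in both groups 6 were higher and none lower (median 1.63). Gja1, a gap junction protein, was at 10.2 and 9.79 CPM against 0.801 and 1.03 CPM, Vcam1 at 24.3 and 24.9 CPM against 1.6 and 4.12 CPM, and Glul, glutamine synthetase, at 146 and 142 CPM against 48.3 and 82.7 CPM. Astrocyte markers summed to 4691 and 5076 CPM in iB-Tregs (C) against 179 and 222 CPM, but Apoe, which macrophages also express, gave 4497 and 4843 CPM of that. Other astrocyte markers were low: Aldh1l1 was at 2.92 and 2.81 CPM, Gfap at 1.46 and 0.775 CPM (higher, with no count in the brain libraries, but adjusted p = 0.0837 without iB-Treg (C) library 2), Aqp4 at 0.472 and 0.436 CPM and Slc1a2 at 0.472 and 1.26 CPM, and S100b and Gjb6 had no count in these libraries. Of 4 tested fibroblast markers 2 were higher and none lower. Of these Fn1 (fibronectin, also made by macrophages) was at 4136 and 3743 CPM against 13.4 and 27 CPM, and Igfbp2 at 3.35 and 3.59 CPM against 0.267 and 0.825 CPM (a call lost without either iB-Treg (C) library, adjusted p = 0.111 and 0.134), while Col1a1, Dcn and Postn were under 1 CPM in iB-Tregs (C). Both tested neutrophil markers were higher, with Mmp9 at 956 and 942 CPM against 26.2 and 23.9 CPM and Csf3r at 12.8 and 12.5 CPM against 0.534 and 1.24 CPM, whereas S100a9 and Retnlg had no count in any of the 4 libraries.
Of the remaining marker lists, oligodendrocyte lineage had 1 of 5 tested genes higher and 2 lower, and neurons 2 of 4 higher and 1 lower. Endothelial cells and pericytes had 2 of 3 higher and 1 lower (T cell-scaled none lower). These genes stood at low levels apart from 3 lower ones. Mbp was at 90 and 84.4 CPM in iB-Tregs (C) against 201 and 208 CPM in the brain libraries. Cnp was at 71.9 and 75.6 CPM against 150 and 146 CPM, and Pecam1 at 48.8 and 51.4 CPM against 77.4 and 66.2 CPM.
In the other direction, all 8 B cell markers were lower in iB-Tregs (C). Ms4a1 (CD20) had no count there against 11.2 and 12 CPM in the brain libraries, at least 162-fold lower, and SP-Tregs held 9.86 and 8.26 CPM. Of 6 tested CD8 T and NK cell markers 4 were lower and 1 higher. Cd8a was at 0.66 and 0.582 CPM against 17.1 and 30.3 CPM. Of 8 tested dendritic cell markers 6 were lower and 2 higher. Flt3 had no count against 8.54 and 4.12 CPM, whereas Itgax was at 98.9 and 101 CPM against 3.47 and 1.65 CPM, and Batf3 was higher too (2.47). Without genes that had almost no counts in 1 group, 2 dendritic cell markers were lower and 2 higher (median 0.28). What these markers contributed to the differences in repair, complement, chemokine and MHC genes was not tested.

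**Figure D4:**
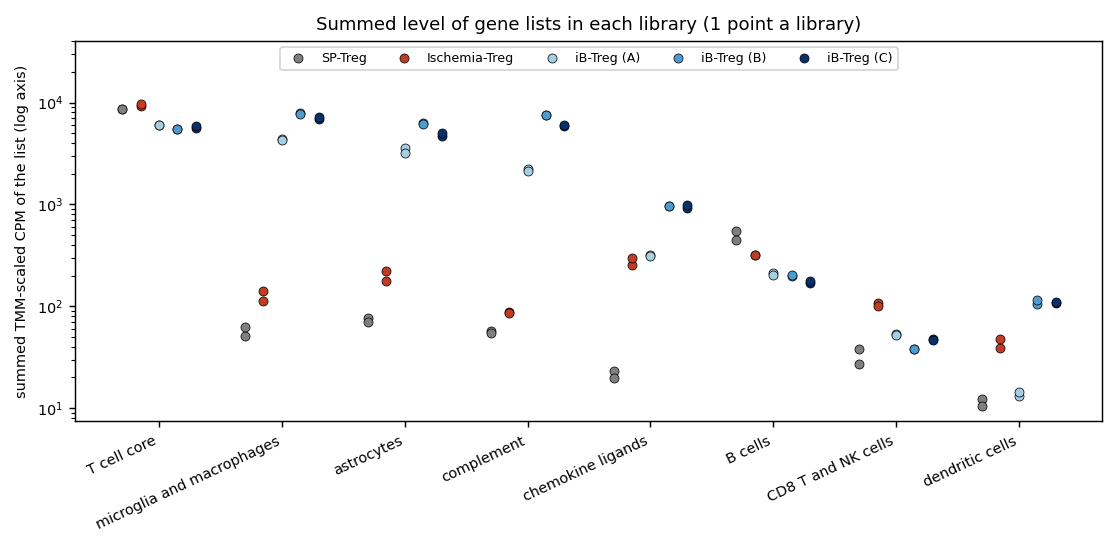
Summed TMM-scaled CPM (log axis) of 8 gene lists in each of the 10 libraries, 1 point a library, coloured by group. Microglia and macrophage markers sum to 6897 and 7301 CPM in iB-Tregs (C) and to 112 and 143 CPM in Ischemia-Tregs, and the T cell core list to 5674 and 5868 CPM and to 9597 and 9255 CPM.

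The largest differences were of the same kinds. Among coding genes at 10 CPM or more in each library of the higher group, the 12 with the largest fitted rise had no count in either brain library, so only a lower bound of the fold can be given. Arg1 (arginase 1, of repair macrophages) was at least 2536-fold higher in iB-Tregs (C), with 856 and 916 CPM there and 25.6 and 22.6 CPM in iB-Tregs (A). The macrophage genes Mmp12, Msr1, Chil3 and Adgre1 were at least 411, 407, 367 and 247-fold higher, and Il1a, Timp1 and Slc7a2 at least 384, 328 and 293-fold.
Ehd1, Cdk2ap2 and Egr2, also among these 12 and at least 447, 361 and 275-fold higher, carry a limit. They were near 0 in SP-Tregs as well, and so were coding genes next to them, of which Egr2 had 1, Ado, with no count in the brain libraries. On chromosome 19, for example, 7 coding genes in a row between positions 6227765 and 6378030 (GRCm38) were over 16-fold lower in every SP-Treg and Ischemia-Treg library than in iB-Tregs (C), among them Sf1, a splicing factor chosen as the example after its values were seen, at 317 and 307 CPM in iB-Tregs (C) and at 2.14 and 1.24 CPM in the brain libraries. Whether these levels come from the cells or from how reads were assigned there was not tested. Il1a also lay in a run of low neighbours, with Il1b and Sirpa, but its level in iB-Tregs (A) was 25.4 and 25.2 CPM against 133 and 135 CPM in iB-Tregs (C).
The 12 largest falls included Ms4a1 and Ccl1 (above), Dscam (log2 fold change -9.02), the muscle gene Ttn (-6.79), Ifng, the cytokine interferon gamma (-5.95), Itga1, Ccr6, Cd8a and the phosphatase gene Dusp10 (-5.44). Ifng was at 0.283 and 0.388 CPM in iB-Tregs (C), 28.8 and 14.2 CPM in the brain libraries and 2.89 and 2.67 CPM in SP-Tregs. Dusp10 was at 7.55 and 8.43 CPM, 320 and 374 CPM and 31.3 and 32.1 CPM in the same order, so both were highest in the brain. Ttn, Dscam, Raver1, Nr3c2 and Rflnb differed from these in that SP-Tregs were also far above iB-Tregs (C), as with Ttn at 1338 and 959 CPM in SP-Tregs, 924 and 1055 CPM in the brain libraries and 9.76 and 8.09 CPM in iB-Tregs (C).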

How the data were processed

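RNA of hCD2+ Tregs was sequenced in 10 libraries of 5 groups, 2 libraries each. The authors deposited 1 table of raw counts per gene. GEO's processing notes name HISAT2 2.0.1, HTSeq 0.6.1 and mm10, whereas the study's methods name another read counter, so the counter is uncertain, and reads of overlapping or near-identical genes may be shared. The depositors' identifier column and the columns from animals run out of step: the table has 172 rows past its last identifier, and counts of brain and spleen libraries stand up to 19 rows below their gene. Within 8 stretches of rows with 1 fixed offset each these counts were put back beside their identifier, which moved 21289 identifiers and left out 29997. At the stated offsets log2 counts of brain and cultured cells correlated across genes at 0.873 to 0.934 per stretch, against at most 0.328 at neighbouring offsets. A second check, the excess of brain counts (mean log2) in protein-coding over other identifiers, was not highest at the stated offset in 3 stretches, those of 212 genes (0.162 against 0.578 at a neighbouring offset), 198 genes (-0.573 against 1.31) and 3454 genes (0.144 against 0.236). Gene names are those of GENCODE, and the kept genes include 18729 of 21897 protein-coding identifiers.

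Genes were tested with edgeR 4.0.16 in R 4.3.3 (quasi-likelihood test, TMM scaling, its default filter on low counts, 4 libraries in the fit, Benjamini-Hochberg over all tested genes, threshold 0.05), and DESeq2 1.42.0 was an alternative. Levels of the other groups were scaled with TMM over all 10 libraries. A fold against a group with no count was set against 3 counts over that group, a floor that, like any interval, covers counting error only. The scripts were tested on simulated data. The members and the 40 gene lists were chosen with earlier results of these data known. Named genes are those in the study's text, the 12 largest rises and falls of coding genes at 10 CPM or more in each library of the higher group, and up to 4 per direction from each list, of which some are not reported here. A further 15 alternative fits were run, 3 of them chosen after seeing the data. Promoter sequences are RefSeq's (GRCm38.p6).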

Additional observations from a re-analysis of the deposited data

How the results depend on the processing

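No paired analysis was possible because the columns of the brain libraries carry the numbers 3 and 4, not the replicate numbers of the labels. Apart from the T cell scale, none of the 15 alternative fits changed the sign of a gene that passed in both fits. Leaving out 1 library moved the genes past the threshold between 5176 and 9117, those higher between 2675 and 5054, those lower between 2501 and 4063, with the fewest without an iB-Treg (C) library, where the lone library was taken to vary like the other group. DESeq2's own test called 6705 genes. With only the rows that had not been moved, fewer genes were left to test, and 1968 passed (1076 higher, 892 lower), 1014 of them over 2-fold (641 higher, 373 lower), while the medians turned to -0.34 for Treg identity, -0.28 for repair and trophic factors and -0.60 for the Bcl2 family. Among genes at 1 CPM or more in both SP-Treg libraries 1743 were over 2-fold higher. There the medians turned to -1.95 for chemokine ligands, few of which reach that level, and to -0.03 for repair and trophic factors. Scaled to the T cell core genes, which by construction moves every gene up, 7604 were higher and 1767 lower (5111 and 1009 over 2-fold), 1087 calls changed sign, and lists with more lower than higher calls went from 22 to 14 of 40. There the medians turned to 0.18 for receptors of the added factors, 0.18 for IL-33 and NF-kB feedback, 0.44 for heat shock, 0.17 for activation and inhibitory receptors, 0.03 for TGF-beta, 0.11 for Notch and 0.16 for cell cycle inhibitors. Of the genes named here, those that turned were Batf (0.48), Ccnd2 (0.18), Ccnd3 (0.44), Il2rb (0.42), Irf4 (0.57), Mcm4 (0.08), Mcm6 (0.20) and Pparg (0.06), and Irf4 also ranged from -0.27 to 0.08 when 1 library was left out. The cause of these shifts, other than the scale itself and the number of genes or libraries, was not tested.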

Other observations

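Lists not described above were mixed. Of the 27 tested genes that the study's text names, 19 were lower in iB-Tregs (C), 5 higher and 3 did not pass, with a median log2 fold change of -1.08 (T cell-scaled -0.39, with 13 lower and 7 higher). Sema6d, a semaphorin, was at 10.6 and 9.88 CPM against 88.1 and 84.8 CPM in Ischemia-Treg libraries 3 and 4 (log2 fold change -3.07, SE 0.13), and Ednrb, the endothelin receptor B, at 14.8 and 12.2 CPM against 6.68 and 7.01 CPM (log2 fold change 0.98, SE 0.25, a call that was lost without either iB-Treg (C) library, at 0.84 and 1.11), while Sema5b was too low to test. Of 16 TGF-beta pathway genes 11 were lower and 3 higher (T cell-scaled 7 and 6), with Smad7, the inhibitory Smad, at 47.9 and 47.1 CPM against 291 and 262 CPM (log2 fold change -2.54). Of 15 Notch pathway genes 9 were lower and 2 higher (T cell-scaled 5 and 7), with Notch1 at -1.31, and Dtx1, a regulator of Notch, at 0.519 and 0.582 CPM against 14.2 and 11.1 CPM in the brain and 404 and 452 CPM in SP-Tregs. Cell cycle inhibitors had 6 of 11 lower and 4 higher (T cell-scaled 4 and 5), among them Cdkn1a (p21), at 221 and 216 CPM against 18.7 and 28.7 CPM (log2 fold change 3.18) and 0.34 and 0.972 CPM in SP-Tregs, and Rbl2, a pocket protein of resting cells, at -2.25. In the Bcl2 family 4 of 12 were higher and 3 lower (T cell-scaled 7 and 2), with the death factors Bax (2.49) and Bbc3 (1.53) higher and Pmaip1 (-2.25) lower. Heat shock genes had 7 of 12 lower and 3 higher (T cell-scaled 3 and 7), with Hsp90aa1 at -1.39 and Hspa5, the chaperone of the endoplasmic reticulum, at 0.95. All 9 tested RNAs without a poly(A) tail were lower in iB-Tregs (C), with a median of -6.95, as with Rn7sk at 7.97 and 7.27 CPM against 2756 and 3071 CPM.

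Low genes from animals clustered along chromosomes. Of 8318 coding genes at 10 CPM or more in both iB-Treg (C) libraries, 217 were over 16-fold lower in all 4 SP-Treg and Ischemia-Treg libraries, and 48 of these lay in 12 runs of 3 or more neighbouring coding genes. In 7 of the 12 runs, with 32 genes, every gene was within 2-fold between iB-Tregs (A) and (C). They are Pcmt1, Nup43, Lats1 and Katna1 on chromosome 10, Zhx1 to Fam91a1 on chromosome 15, Dgcr6 to Tango2 on chromosome 16 and Ndufs3, Kbtbd4 and Celf1 on chromosome 2, the 7 genes on chromosome 19 described above, a second run on chromosome 19 that holds Cdk2ap2 and Pitpnm1, and C1qa, C1qb and C1qc, the complement genes of macrophages, on chromosome 4. Lats1, a kinase of the Hippo pathway, was at 52.5 CPM on average in iB-Tregs (C) and had no count in the brain libraries. The other 5 runs hold Fcgr, Ccl and Cd300 genes, Gatm with its neighbours, and Il1a with Il1b and Sirpa. Whether mapping, the row order or expression gave these runs was not tested.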
